A study of Mus musculus with 6 samples.

Results

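Pcdhb9, Pcdhb10, Pcdhb11, Pcdhb12, Pcdhb13, Pcdhb14 and Pcdhb15 are 7 neighbouring genes in the middle of the beta array of clustered protocadherins on mouse chromosome 18. They were taken by name from the 22 genes of that array, and they are 7 of the 54532 gene identifiers counted. In brains with Mphosph8 deleted in the neural lineage, 2 of the 7, Pcdhb14 and Pcdhb11, rose more than 2-fold over heterozygous controls. The other 5 lay between 1.23 and 1.68 times the control level without passing the test. The 2 genes that passed do not lie next to each other, and each has neighbours on either side that did not pass.

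Clustered protocadherins are cell surface proteins of neurons. Each beta gene has its own promoter and encodes a whole protein, with extracellular cadherin repeats, a membrane-spanning stretch and a short cytoplasmic tail, whereas alpha and gamma genes splice their first exon to exons shared by the array. Promoter choice varies from neuron to neuron, and promoters not in use lie in repressive chromatin with methylated DNA and trimethylated histone H3 lysine 9 (H3K9me3). Matching sets of proteins on opposed membranes bind each other, which is how neurites of one neuron recognise themselves. MPP8, the product of Mphosph8, binds H3K9me3 as a subunit of the repressive HUSH complex.

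RNA of whole brains was sequenced at postnatal day 14 on the C57BL/6J background, with 1 library from each of 3 mice per genotype. The controls were Mphosph8fl/+ Nestin-Cre+ and the mutants, labelled Mphosph8∆n, were Mphosph8fl/fl Nestin-Cre+, so both groups carried the Cre transgene. The controls were thus heterozygous for the deletion, not wild type, and kept an allele without loxP sites. Nestin-Cre acts in neural progenitors and therefore in the neurons and glia they give rise to, not in microglia or vessels. The study gives the genotype of the control animals by the transgene alone, and the labels were followed here. It calls the brains those of littermates, without saying which of them shared a litter.

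Depth ran from 12956880 to 15223424 counts per library. Mphosph8 itself lay at 55.8, 48.6 and 70.7 CPM (counts scaled to a common library size) in controls and at 33.1, 27.2 and 26.5 CPM in mutants, so the groups did not overlap. Its log2 fold change was -1.02 ± 0.12 (SE; edgeR adjusted p 0.000157), counted over the whole gene, including exons that the deletion leaves in place. Counts of the Y-linked genes Ddx3y, Eif2s3y, Kdm5d and Uty were high in control replicate 3 alone, which had 1338 counts of Ddx3y and 27 of the female-specific RNA Xist, while the other libraries had 11130 to 17697 counts of Xist. By these counts the only male was a control and every mutant was female, so sex was not balanced between the groups. No fit had a term for sex, and only the fit without control replicate 3 compared females alone. Replicates differed by more than counting noise in every pair (chi-square per degree of freedom 3.67 to 13.6).

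The 7 genes occupy 75486 bases between 37400855 and 37476340 (GRCm38, GENCODE M21), all on the plus strand. A gap of 42250 bases separates Pcdhb9 from Pcdhb8, and only 1473 bases lie between Pcdhb15 and Pcdhb16. Within the segment, neighbours are from 1446 bases apart, between Pcdhb13 and Pcdhb14, to 17189 bases apart, between Pcdhb14 and Pcdhb15. Every member is protein coding and has 1 annotated transcript made of 1 exon, so that each is intronless. The coding parts are alike in length, from 2361 to 2487 bases with a GC content of 50.4% to 52.1%. The annotated transcripts differ far more, from 2801 bases for Pcdhb15 to 8695 bases for Pcdhb14, whose 3' untranslated region is 6117 bases. That of Pcdhb11 is the next longest, at 1824 bases, followed by Pcdhb13 with 1248 bases.

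Since reads of 50 bases can fit more than 1 of these related genes, the members were compared with each other. Over the 21 pairs, the aligned coding bases were identical at 72.9% to 88.4%, with a median of 75.6%. Pcdhb11 and Pcdhb12 were the most alike (88.4%), Pcdhb10 and Pcdhb11 next (85.7%), followed by Pcdhb10 and Pcdhb12 (83.2%). Of the 50-base words of a transcript, the share also found in transcripts of another gene ran from 1.80% for Pcdhb13 to 12% for Pcdhb12. Pcdhb14 shared 2.02%, Pcdhb15 1.89%, Pcdhb10 7.21%, Pcdhb9 8.75% and Pcdhb11 9.52%. Pcdhb12 shared most with Pcdhb11 (8.01%), Pcdhb9 with Pcdhb7 (6.29%), and Pcdhb11 with Pcdhb12 (5.47%). By the share of words, the counts of Pcdhb9, Pcdhb10, Pcdhb11 and Pcdhb12 are less certain than those of Pcdhb13, Pcdhb14 and Pcdhb15. The words that Pcdhb14 shared were spread over 320 genes, however, against 6 to 19 genes for the other members. What such reads add to its counts was not tested. Pcdhb12 is the only member with exons of another gene opposite it. Of its 3034 bases, 1927 lie opposite the antisense gene Gm37446, which had 13 counts in all controls together and 32 in all mutants and was too low to be tested.

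Pcdhb14 (ENSMUSG00000044043, chr18:37447656-37456350), rose most. It lay at 10.8, 10.6 and 10.9 CPM in the controls and at 35.9, 34.7 and 33.4 CPM in the mutants. Every mutant brain stood above every control brain, and the lowest mutant value was 33.4 CPM against a highest control value of 10.9 CPM. The mean went from 10.8 ± 0.135 to 34.7 ± 1.23 CPM (SD, n = 3). This is a 3.22-fold rise (95% interval 2.78 to 3.72), or 1.69 ± 0.10 (SE) in log2 units, at an adjusted p of 1.36e-08 by edgeR. With 145 to 163 counts per control library, counting alone gives a coefficient of variation of 8.0%, so that the 1.25% seen among the 3 controls is below what counting would give.

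Pcdhb11 (ENSMUSG00000051486, chr18:37421418-37425836) rose as well, from a lower level. The controls were at 5.19, 4.91 and 4.79 CPM, and the mutants were at 10.1, 14.3 and 10.8 CPM. The groups did not overlap, and mutant replicate 2 stood above the other mutants. The fold change was 2.36 (95% interval 1.87 to 2.99), which is 1.24 ± 0.16 (SE) in log2 units, and edgeR gave an adjusted p of 0.000315. The mutant brains varied by 19.5% (coefficient of variation) where counting gives 8.02%. Without mutant replicate 2 edgeR gave 1.07 in log2 units and an adjusted p of 0.00395, so the gene was still called.

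Pcdhb15 (ENSMUSG00000047033, chr18:37473540-37476340), at the 3' end of the segment, came next but did not pass. Its controls lay at 4.39, 5.20 and 3.17 CPM and its mutants at 7.36, 7.02 and 7.05 CPM, without overlap. The mutants were close together, with a coefficient of variation of 2.61%, and the controls were spread, with 24.0%. In log2 units the difference was 0.75 ± 0.18 (SE), its adjusted p by edgeR was 0.0919 and the 95% interval of the fold 1.29 to 2.20, which takes in a 2-fold rise. With no filter on low counts edgeR's adjusted p was 0.00685, and over the other 11 fits it lay between 0.0614 and 0.379, the last without control replicate 3.

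**Figure D1:**
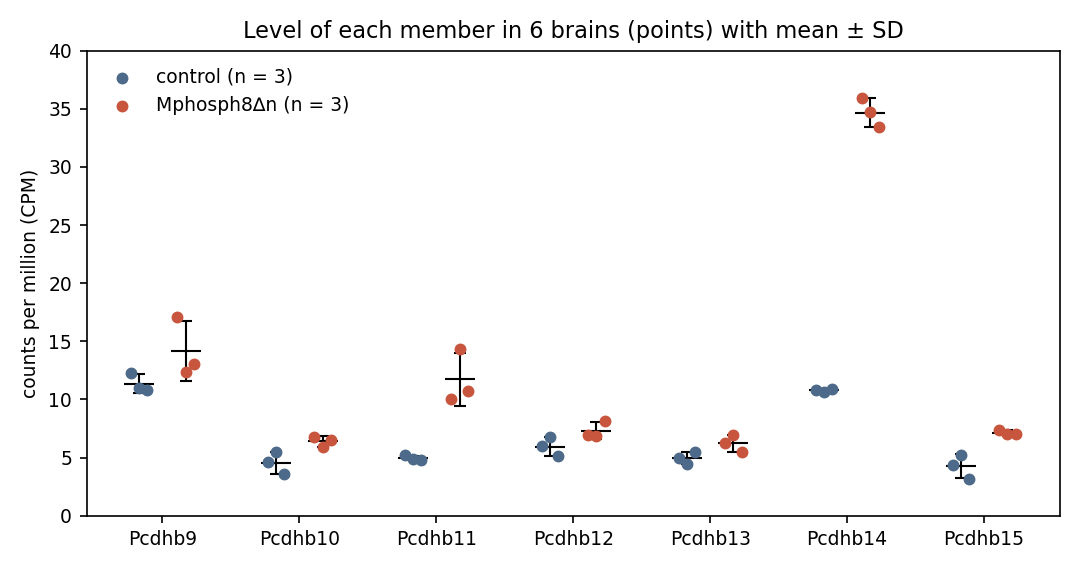
Level of each of the 7 genes in CPM (vertical axis, linear) in 3 control (blue) and 3 Mphosph8∆n brains (red), where each point is 1 brain and the bars give mean ± SD. The Pcdhb14 mutants sit between 33.4 and 35.9 CPM, far above its controls, and Pcdhb13 is the only gene whose groups overlap.

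Pcdhb10 (ENSMUSG00000045657, chr18:37411664-37414514) was at 4.59, 5.49 and 3.58 CPM in controls and at 6.80, 5.90 and 6.47 CPM in mutants. All mutant brains were above all control brains, but the lowest mutant and the highest control were 5.90 and 5.49 CPM. Its difference of 0.49 ± 0.18 (SE) in log2 units had an adjusted p of 0.506 by edgeR, and the interval of the fold was 1.08 to 1.83. Without control replicate 3 it was 0.35.

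Pcdhb9 (ENSMUSG00000051242, chr18:37400855-37403909), the 5' end of the segment, had the highest mean of all members in the control brains, with 12.3, 11.0 and 10.8 CPM. Mutants had 17.1, 12.4 and 13.0 CPM. The groups only just missed each other, at 12.4 CPM for the lowest mutant and 12.3 CPM for the highest control, and mutant replicate 1 alone was well above the rest. The log2 fold change of 0.31 ± 0.14 (SE; edgeR adjusted p 0.689; fold interval 1.02 to 1.52) was 0.16 without that library.

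Pcdhb12 (ENSMUSG00000043458, chr18:37435621-37438654) lay at 5.98, 6.74 and 5.13 CPM in controls and 6.96, 6.87 and 8.14 CPM in mutants, also without overlap. Its log2 fold change was the smallest of the segment, 0.30 ± 0.16 (SE), with 0.814 as its adjusted p by edgeR and a fold interval of 0.976 to 1.56. Pcdhb13 (ENSMUSG00000047307, chr18:37442500-37446209) was at 4.92, 4.47 and 5.47 CPM in controls and 6.24, 6.94 and 5.45 CPM in mutants. Here the groups overlapped, since control replicate 3 was just above mutant replicate 3. Its log2 value was 0.32 ± 0.17 (SE), with 0.811 as adjusted p by edgeR and a fold interval of 0.977 to 1.6. For Pcdhb12 and Pcdhb13 the intervals take in no change and stop short of a 2-fold rise, and the same upper limit held for Pcdhb9 and Pcdhb10.

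All 7 members passed the filter on low counts and were tested, and 2 were called, which means an edgeR adjusted p under 0.05 and a fold change over 2. Over the 16731 genes tested, 0.353% were called higher by this rule. The same 2 members passed the adjusted p with no threshold on the fold, as did 0.532% of all genes in this direction. At an unadjusted p under 0.05, 5 members were higher, against 4.09% of all genes tested. In 6 of the 7 every mutant value was above every control value, as in 6.23% of all genes tested. All 7 log2 fold changes were positive, with a median of 0.49, while 47.6% of all genes tested had a positive value and their median was -0.01. Pcdhb11 and Pcdhb14 were also the 2 members past edgeR's test against a 1.5-fold change, which 0.185% of all genes passed in this direction.

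Within the groups, the order of the libraries differed from member to member, with deviations of about the size of counting error for many of them (counting alone gives coefficients of variation of 4.67% to 12.8%). In controls, Pcdhb10, Pcdhb12 and Pcdhb15 were each highest in replicate 2 and lowest in replicate 3, by 0.29, 0.19 and 0.32 above and by 0.33, 0.21 and 0.39 below their control means on the log2 scale. Pcdhb13 had the opposite order, at -0.14 in replicate 2 and 0.15 in replicate 3. In mutants, replicate 1 was the highest for Pcdhb9, Pcdhb10, Pcdhb14 and Pcdhb15, replicate 2 for Pcdhb11 and Pcdhb13, and replicate 3 for Pcdhb12. No library had all 7 members on the same side of their group means, and the number above ran from 2 to 6. Whether members vary together within a genotype cannot be read from 3 libraries at this noise.

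Summed over the 7 genes, the level was 48.2, 48.4 and 43.8 CPM in controls and 90.4, 88.2 and 84.3 CPM in mutants. The means were 46.8 ± 2.6 and 87.6 ± 3.08 CPM (SD, n = 3), a ratio of 1.87 with a gain of 40.8 CPM. Pcdhb14 made up 58.6% of that gain and Pcdhb11 16.6%. Pcdhb15 contributed 7.07%, Pcdhb9 6.88%, Pcdhb10 4.49%, Pcdhb12 3.36% and Pcdhb13 3.08%. Without Pcdhb14 the sum went from 36.0 ± 2.69 to 53.0 ± 1.87 CPM, a ratio of 1.47. Without both Pcdhb11 and Pcdhb14 it went from 31.1 ± 2.56 to 41.2 ± 2.84 CPM, a ratio of 1.33, still with every mutant brain above every control brain.

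The shares of the segment's reads held by most members did not overlap between the groups. Pcdhb14 held 22.5%, 21.9% and 24.8% of the 7-gene total in the controls and 39.7%, 39.4% and 39.7% in the mutants, and so was the largest part of it in each mutant brain. Pcdhb9, with 25.5%, 22.7% and 24.7% in controls, held 18.9%, 14.1% and 15.4% in mutants, although its own level was not lower. The share of Pcdhb11 went from 10.6% ± 0.422 to 13.4% ± 2.62 (SD, n = 3). Those of Pcdhb10, Pcdhb12 and Pcdhb13 went from 9.68% ± 1.6 to 7.29% ± 0.528, from 12.7% ± 1.13 to 8.38% ± 1.11 and from 10.6% ± 1.67 to 7.08% ± 0.722. In these 6 members the groups did not overlap, and a two-sided exact permutation test gave p 0.1 for each, which is the lowest value that 3 against 3 brains can reach and is not adjusted for the 7 shares compared. Pcdhb15 kept overlapping shares of 9.03% ± 1.75 and 8.15% ± 0.202 (exact two-sided permutation p 0.5). A share is free of library scaling, but shares of a total depend on each other. They use the same counts as the fold changes, so they are no separate evidence.

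**Figure D2:**
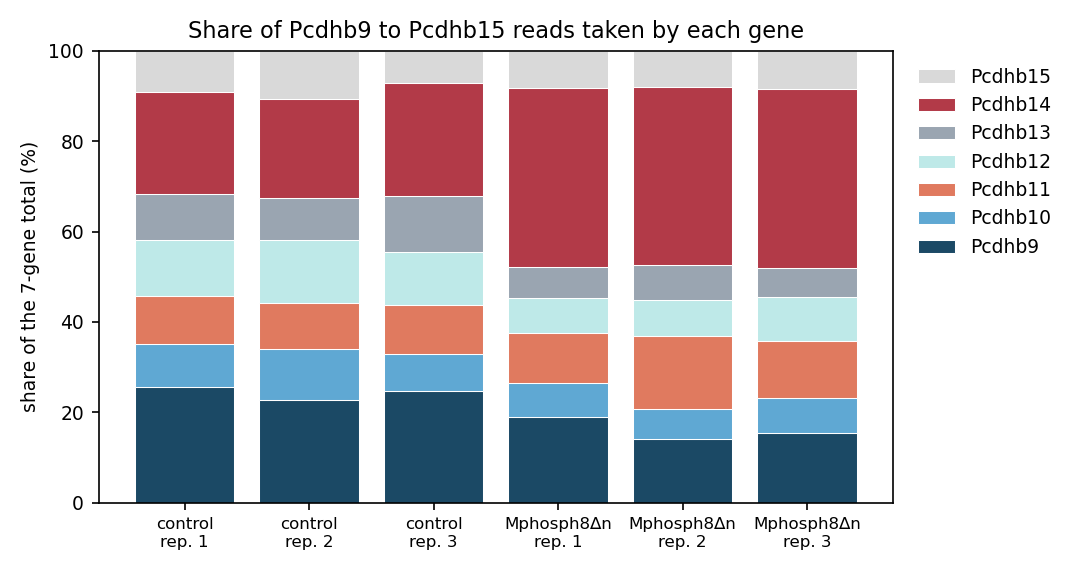
Share of the reads of the 7 genes (vertical axis, %) taken by each gene in each of the 6 brains, 1 stacked bar per brain. The band of Pcdhb14 covers 21.9% to 24.8% in controls and 39.4% to 39.7% in Mphosph8∆n brains, and the band of Pcdhb9 narrows.

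Ratios of neighbours within a library, which do not depend on scaling either, were computed after the fold changes had been seen. From Pcdhb13 to Pcdhb14, over 1446 bases, the log2 ratio of counts was 1.14, 1.25 and 0.99 in controls and 2.53, 2.32 and 2.62 in mutants, a difference of 1.36. From Pcdhb11 to Pcdhb12, over 9784 bases, it was 0.25 ± 0.18 in controls and -0.67 ± 0.35 in mutants (SD, n = 3), so that Pcdhb12 had more counts than Pcdhb11 in every control brain and fewer in every mutant brain. From Pcdhb10 to Pcdhb11 and from Pcdhb14 to Pcdhb15 the groups did not overlap either, with differences of 0.72 and -0.91. These 4 pairs each contain Pcdhb11 or Pcdhb14, and the two-sided exact permutation test gave p 0.1 for each, again the lowest it can reach and unadjusted for the 6 pairs. The ratios use the same counts as the fold changes and restate them, so they are no separate evidence. The 2 pairs without them overlapped. Pcdhb12 to Pcdhb13 differed by 0.02 (exact two-sided permutation p 0.9) and Pcdhb9 to Pcdhb10 by 0.20 (exact two-sided permutation p 0.4).

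**Figure D3:**
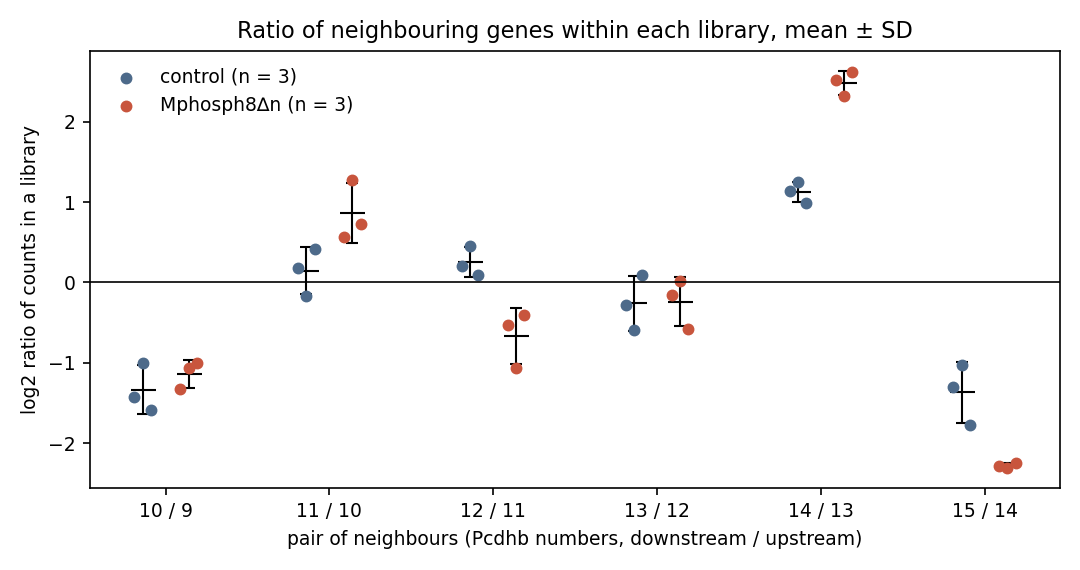
Log2 ratio of the counts of neighbouring genes within a library (vertical axis) for the 6 pairs of neighbours, in 3 control (blue) and 3 Mphosph8∆n brains (red), with mean ± SD. The ratio of Pcdhb14 to Pcdhb13 is 1.13 ± 0.13 in controls and 2.49 ± 0.15 in mutants, and the ratios of Pcdhb10 to Pcdhb9 and of Pcdhb13 to Pcdhb12 overlap between the groups.

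To set levels of different genes beside each other, CPM were divided by the exonic length in kilobases (RPKM). In controls Pcdhb9 stood apart from the rest, at 3.72 ± 0.268 RPKM (SD, n = 3), and Pcdhb12 (1.96), Pcdhb10 (1.6), Pcdhb15 (1.52), Pcdhb13 (1.33), Pcdhb14 (1.24) and Pcdhb11 (1.12) followed. From Pcdhb12 down to Pcdhb14, neighbours in this order overlapped in their values and were not separate. In mutants Pcdhb9 (4.64 ± 0.839) and Pcdhb14 (3.99 ± 0.141) overlapped at the top, Pcdhb11 (2.65), Pcdhb15 (2.55), Pcdhb12 (2.41) and Pcdhb10 (2.24) followed with overlapping values between neighbours, and Pcdhb13 (1.67) was lowest and separate from Pcdhb10. Per length, Pcdhb14 and Pcdhb11 thus moved from the last places of the control order to the places just below the top of the mutant order. These places depend on where a gene is taken to end. RefSeq ends Pcdhb14 far earlier, with a length of 3438 bases. The same counts, taken over the longer annotated transcript, gave 3.13 RPKM in controls and 10.1 RPKM in mutants when divided by that length. These are upper limits, since reads beyond the RefSeq end stay in the count. On them Pcdhb14 was below Pcdhb9 alone (3.72) in controls and the highest of the segment in mutants, so its low place in the control order is not secure.

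The beta genes on either side give the context of the array. Of the 7 genes Pcdhb2 to Pcdhb8, upstream of the gap, 6 were called, with a median log2 fold change of 1.06 and a summed level 2.55 times that of controls. Of the 7 genes Pcdhb16 to Pcdhb22, downstream, 2 were called, with a median of 0.45 and a summed level 1.57 times that of controls. With 2 of 7 called and a median of 0.49, Pcdhb9 to Pcdhb15 had the count of the downstream genes and lay below the upstream genes, and no test was made of these differences. Among the other beta genes the log2 fold change ran from 0.12 for Pcdhb22 to 2.71 for Pcdhb6. The log2 fold change of Pcdhb14, 1.69, was matched outside the segment by Pcdhb8 (1.69 ± 0.14, SE) and exceeded by Pcdhb6. The segment held 30.2% ± 1.93 of all beta reads in controls and 30.2% ± 0.320 in mutants (SD, n = 3), so that its part of the array total overlapped between the groups.

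**Figure D4:**
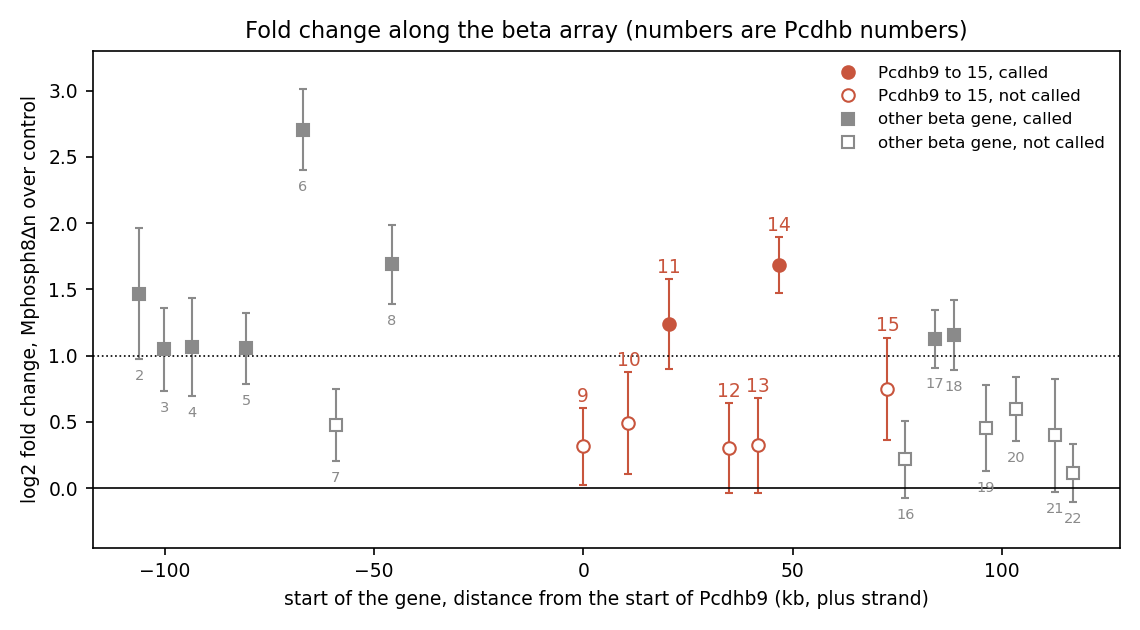
Log2 fold change of Mphosph8∆n over control with its 95% interval (vertical axis) for the 21 tested beta genes, placed by the distance of their start from that of Pcdhb9 (horizontal axis, kb). Filled symbols were called, the solid line marks no change and the dotted line a 2-fold rise. Among the red members, Pcdhb11 and Pcdhb14 stand above 1 and lie between members that do not.

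Which other genes lay closest in profile over the 6 brains was asked by the distance between log2 levels relative to the control mean (root mean square over 6 libraries). For the summed members this profile was 0.04, 0.05 and -0.09 in controls and 0.95, 0.91 and 0.85 in mutants. The closest gene outside the clustered protocadherins was Nhlrc1, which encodes the E3 ubiquitin ligase malin, at a distance of 0.05 on the log2 scale. Its mean was 11.1 CPM in controls and 20.6 CPM in mutants, higher by 0.89 ± 0.11 (SE) in log2 units at an adjusted p of 0.000315 by edgeR. Pnmal1, a gene of the Ma antigen family, followed at 0.08 and was higher by 0.80 ± 0.08 (SE) at an adjusted p of 8.44e-06 by edgeR. The next were Gm48701 (0.10), the processed pseudogene AA414768 (0.11) and the lincRNA 4933412O06Rik (0.11). Gm48701 and 4933412O06Rik did not pass the test, with edgeR adjusted p of 0.726 and 0.384, and Gm48701 was low, with means of 0.508 and 0.909 CPM in controls and mutants. All these genes were picked for closeness in the same 6 libraries, so their rise follows from the choice and their p values add no support. How small a distance arises by chance was not tested. Among the other clustered protocadherins the closest were Pcdhb3 (0.12), Pcdhga4 (0.13) and Pcdhb5 (0.14). The members themselves lay farther from their own sum, from 0.19 for Pcdhb15 to 0.55 for Pcdhb14.

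Genes that act on or with protocadherins were examined as 3 lists. Of 14 regulators of protocadherin promoters and their chromatin, among them the insulator protein gene Ctcf, the cohesin genes Rad21, Smc1a and Smc3, and Smchd1 and Dnmt3b, which take part in DNA methylation of the cluster, 0 passed an edgeR adjusted p of 0.05. By DESeq2 and limma-voom the count was also 0, and 0 had an unadjusted p under 0.05. By edgeR's adjusted p 0.628% of all genes tested changed in either direction. Their log2 fold changes ran from -0.15 to 0.15, and the smallest adjusted p was 0.844. Of 15 intracellular partners, such as the kinases Ptk2 and Ptk2b, to which protocadherins bind, and the WAVE complex genes Wasf1, Cyfip1 and Nckap1, 0 passed by edgeR, DESeq2 or limma-voom and 0 had an unadjusted p under 0.05, with log2 fold changes from -0.13 to 0.12 and a smallest adjusted p of 0.880. Of 7 HUSH genes and partners, Fam208a (0.77 ± 0.12, SE; edgeR adjusted p 0.00141), which encodes TASOR, and Morc2a (0.45 ± 0.09, SE; edgeR adjusted p 0.0208) rose and Mphosph8 fell.

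The cell types of the brain were examined next, because in bulk tissue fewer cells of a type and less RNA per cell cannot be told apart. Of 8 neuronal markers 0 passed edgeR's test or an unadjusted p under 0.05, with summed levels of 4274 to 4390 CPM in controls and 4270 to 4491 CPM in mutants. Oligodendrocyte markers were lower. All 8 had negative log2 fold changes with a median of -0.47, while 47.6% of all genes tested had a positive value. All 8 also had an unadjusted p under 0.05 by edgeR. Mog and Cldn11 passed (edgeR adjusted p 0.0351 and 0.0496), against 0.628% of all genes tested in either direction. By DESeq2 5 of the markers passed and by limma-voom 2, and the shares of all genes passing by those methods are not given here. The sums were 21576 to 25839 CPM in controls and 17129 to 19850 CPM in mutants. Of the 6 astrocyte, 4 oligodendrocyte progenitor, 6 microglia, 3 endothelial, 3 choroid plexus and 3 blood markers, 0 passed edgeR's test. Of these, 1 astrocyte marker, Aldh1l1, was higher in mutants (0.26 ± 0.09, SE, in log2 units) at an unadjusted p under 0.05 by edgeR. The choroid plexus marker Ttr was lower at that level and also passed in DESeq2 and limma-voom. The 3 choroid plexus markers had negative values with a median of -0.25, and their sums did not overlap, at 1407 to 1698 CPM in controls and 1037 to 1239 CPM in mutants. Nearly all of that sum was Ttr, with means of 1498 and 1100 CPM (edgeR adjusted p 0.0764), while Folr1 and Kl each overlapped between the groups. No marker was at 0 counts in all libraries. The part of the oligodendrocyte and choroid plexus differences in the levels of the 7 genes was not tested.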

How the data were processed

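Per the labels and the study's methods, the authors made polyA libraries from total RNA, sequenced single reads of 50 bases, trimmed them with Trim Galore 0.5.0, removed ribosomal, mitochondrial, phiX and adapter reads with Bowtie2 2.3.4.1, mapped what remained to GRCm38 using STAR and obtained a count for each Ensembl gene from featureCounts (Subread 1.6.2). The deposited values are raw read counts per gene, not normalised, 1 table per brain. The strand setting is not given in the sources used here. Of 492 genes lying wholly opposite exons of the other strand, 26.6% had 10 or more counts, against 33.9% of 45362 genes with nothing opposite. How reads that fit several genes were treated is not given either.

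Symbols, coordinates and exon lengths came from GENCODE M21 (54495 of 54532 identifiers matched) and RefSeq lengths from GRCm38.p6. Genotypes were compared in edgeR 4.0.16 under R 4.3.3 by the quasi-likelihood F test (filterByExpr, TMM) with genotype as the only term, all 6 libraries and Benjamini-Hochberg adjustment over 16731 genes. The steps were tested on simulated data. CPM use the effective library size, SE come from the F statistic, and 95% intervals from the t distribution with the fit's degrees of freedom. Coding parts were aligned globally with Biopython 1.88, and 50-base words were searched in annotated transcripts in sense direction. Shares and neighbour ratios were compared by exact two-sided permutation over libraries. Replicates are separate mice. Both groups use the same replicate numbers, but deviations from the group means correlated by only 0.10, -0.05 and 0.08 between libraries of one number, so the numbers were not treated as pairs.

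The genes, the lists and the tests were chosen with earlier results of these data known. The named genes are the 7 members, Mphosph8, list genes past the test, the other beta genes with the largest and smallest change, and the genes nearest in profile. Other names in the text were chosen after their values were seen. As alternatives, the fit was repeated in DESeq2 1.42.0 and limma-voom (limma 3.58.1), with RLE scaling, with no filter or a minimum of 1 CPM in 3 libraries, leaving out each library in turn, and with the replicate block, no fold threshold or the test against a 1.5-fold change. RefSeq lengths and neighbour ratios were added after seeing the data. No sequence of the members is printed.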

Additional observations from a re-analysis of the deposited data

How the results depend on the processing

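Under all 14 alternatives to the count of members called, Pcdhb11 and Pcdhb14 were the 2 called, including the 6 fits that left out a library, no fold threshold and the replicate block (2 called). The log2 fold change of Pcdhb14 stayed between 1.66 and 1.71 and that of Pcdhb11 between 1.07 and 1.33 over 12 alternatives, with adjusted p up to 1.27e-06 and 0.00395. The other 5 kept a positive sign in all of them and stayed short of the threshold, with the exception of Pcdhb15 with no filter on low counts. The Mphosph8 log2 fold change ran from -1.13 to -0.85. Without control replicate 3, the only male, the log2 fold change was 1.69 for Pcdhb14, 1.22 for Pcdhb11 and 0.58 for Pcdhb15. In that fit Pcdhb13 was at 0.40, Pcdhb10 at 0.35, Pcdhb9 at 0.28 and Pcdhb12 at 0.21. The replicate block changed no call, with log2 fold changes of 1.69 for Pcdhb14, 1.23 for Pcdhb11 and 0.76 for Pcdhb15.

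The ratio of the summed level was 1.81 to 1.91 without 1 library, 1.66 when each member had the same weight (mean of log2 CPM) and 1.47 without Pcdhb14, which follows from the weight of that gene. On reads per kilobase, the share of Pcdhb14 was higher by 9.83 percentage points instead of 16.5, and that of Pcdhb15 by 0.595 where the share of reads changed by -0.877, because the annotated lengths differ. With the same counts divided by RefSeq lengths, Pcdhb14 had 3.13 and 10.1 RPKM in control and mutant brains instead of 1.24 and 3.99. Pcdhb11 had 1.37 and 3.24 instead of 1.12 and 2.65. Reads beyond the RefSeq ends were not removed, so these values are upper limits. Pcdhb10, Pcdhb12, Pcdhb13 and Pcdhb15 had 47 to 92 counts per control library, and whether greater depth would change their calls was not tested.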
